A study of Mus musculus with 167 samples.

Results

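Brain is the organ outside the field in this study of whole thorax lung irradiation (WTLI), and mature microRNAs (miRNAs) were counted in brain homogenates of C3H mice of the substrain C3Hf/Sed/Kam. The part described here holds every C3H library of the tissue labelled Brain, which is 15 of the 167 tissue and blood libraries of the series. The 7 WTLI libraries came from mice labelled irradiated and the 8 sham libraries from mice labelled not irradiated, and all were taken in month 4. All 15 mice were female, the labels give no engineered allele, and the study's methods describe the mice as gnotobiotic. A single X-ray exposure was given to a strip across the thorax under ketamine and xylazine anaesthesia, with lead shielding over the remaining body, and the sources used here do not state how sham mice were handled on that day. Each library carries an animal number of its own, and only mice alive at month 4 could give one. C3H lung and heart of the same animals (7 WTLI and 8 sham libraries each), which lay inside the field, and C57 brain (5 WTLI and 15 sham libraries, month 6, with both sexes in the strain) are used for comparison.

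A miRNA is a short RNA that is loaded into an Argonaute protein and pairs with messenger RNAs, mainly through its seed, bases 2 to 8, which lowers their stability and translation. Brain is rich in miRNAs that few other organs use, among them miR-9 and miR-124 of the neuronal lineage and miR-219a and miR-338 of myelin-forming oligodendrocytes. Others mark the cells that any piece of brain also holds, such as miR-126a of vessel walls and miR-451a and miR-144 of red blood cells. The question that the comparison addresses is whether an exposure of the chest alters miRNA abundance in an organ that was shielded.

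The following mature sequences are shown because the results turn on them. They are from RefSeq (GRCm38.p6, the same coordinates as mm10), 372 of the 433 miRNAs tested had an entry in that table, and capitals mark the seed. miR-9-5p is shown for neurons, miR-219a-5p and miR-338-3p for oligodendrocytes and miR-126a-3p for vessels:

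miR-9-5p: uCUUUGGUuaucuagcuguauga
miR-219a-5p: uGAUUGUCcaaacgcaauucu
miR-338-3p: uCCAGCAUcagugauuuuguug
miR-126a-3p: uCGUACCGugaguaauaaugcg

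The erythroid cluster on chromosome 11, where miR-144 (3p arm at chr11:78073047-78073066) and miR-451a (chr11:78073186-78073207) lie on the plus strand in no other annotated gene of GENCODE vM21, holds the lowest values of the comparison:

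miR-451a: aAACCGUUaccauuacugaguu
miR-144-3p: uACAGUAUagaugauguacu
miR-144-5p: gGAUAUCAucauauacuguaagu

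The miR-34/449 seed family shares GGCAGUG. miR-449c-5p (chr13:113036008-113036028, plus strand, in an intron of Cdc20b) had the smallest p-value in brain, and miR-34a-5p was called in lung and heart:

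miR-449c-5p: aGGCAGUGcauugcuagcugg
miR-449a-5p: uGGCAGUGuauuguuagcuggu
miR-34a-5p: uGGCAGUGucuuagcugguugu

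The next miRNAs were among those that differed most between an irradiated organ and brain:

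miR-7b-5p: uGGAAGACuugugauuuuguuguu
miR-184-3p: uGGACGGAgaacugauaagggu
miR-216a-5p: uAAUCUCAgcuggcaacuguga

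The miR-200 family, which had the largest spread between libraries, has 2 seeds that differ by 1 base. miR-200a, miR-200b and miR-429 lie together on the minus strand of chromosome 4 (miR-200a-3p at chr4:156054911-156054932), in introns of Ttll10, and miR-141 and miR-200c on the minus strand of chromosome 6 (miR-200c-3p at chr6:124718324-124718346):

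miR-200a-3p: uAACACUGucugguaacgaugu
miR-141-3p: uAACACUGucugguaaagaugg
miR-200b-3p: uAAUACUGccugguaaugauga
miR-200c-3p: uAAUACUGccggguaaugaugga
miR-429-3p: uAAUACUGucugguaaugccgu

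The 15 libraries held 2043999 to 3966832 miRNA reads, and the totals of the arms did not differ detectably (exact permutation test, two-sided, p = 0.511, adjusted p = 0.885 over 5 tests of library measures). Between 627 and 724 miRNAs had at least 1 read in a library. After each library was thinned to the smallest total, the mean number of detected miRNAs was 641 in both arms (difference 0.518, exact permutation p = 0.941, adjusted p = 0.941). The tissue label held against its markers. miR-124-3p, the neuronal miRNA, lay between 1142 and 4799 reads per 10 to the power of 6 miRNA reads (RPM) in brain, at 4.58 RPM or less in C3H lung, at 13.01 RPM or less in C3H heart and at 0.479 RPM or less in C3H blood cells. miR-208a-3p of heart muscle was at 0.809 RPM or less in brain. WTLI library 2 stood apart, with a mean correlation of 0.944 with the other C3H brain libraries where the other libraries had 0.965 or more, and the named changes that it moved by over 0.1 are also given without it. The titles also carry a letter, A (4 sham, 3 WTLI) or B (4 sham, 4 WTLI), whose meaning was not stated. Libraries of letters A and B differed in 24 of 433 miRNAs (5.54%), 4 higher and 20 lower in B, at the thresholds given next (limma, a comparison added after the data were seen), so changes within the letters, as differences of mean normalised log2 values, are given below for the miRNAs with the smallest p and for several others.

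No miRNA in C3H brain passed the test of WTLI against sham. Of 1915 miRNAs in the table, 1004 had a read in at least 1 of the 15 libraries. The count filter, set over the brain libraries of both strains, was passed by 433, which held 99.98% of the C3H brain reads. These 433 include miR-342-5p, which had no read in the 15 libraries. A call needed an adjusted p under 0.05 (limma on voom log2 RPM with quantile normalisation, Benjamini-Hochberg) together with a 2.25-fold difference or more, which is 1.17 in log2, and 0 of 433 (0%) were called. None passed the adjusted p alone, the smallest adjusted p being 0.818, and 9 of 433 (2.08%) had an unadjusted p under 0.05, 4 of them higher and 5 lower after WTLI. edgeR called 0 with 8 miRNAs at an unadjusted p under 0.05, and DESeq2 called 0 with 9. In 0 of 433 miRNAs (0%) did the values of one arm lie wholly outside those of the other. The same thresholds called 34 of 350 miRNAs (9.71%) in C3H lung and 21 of 312 (6.73%) in C3H heart of these mice.

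**Figure D1:**
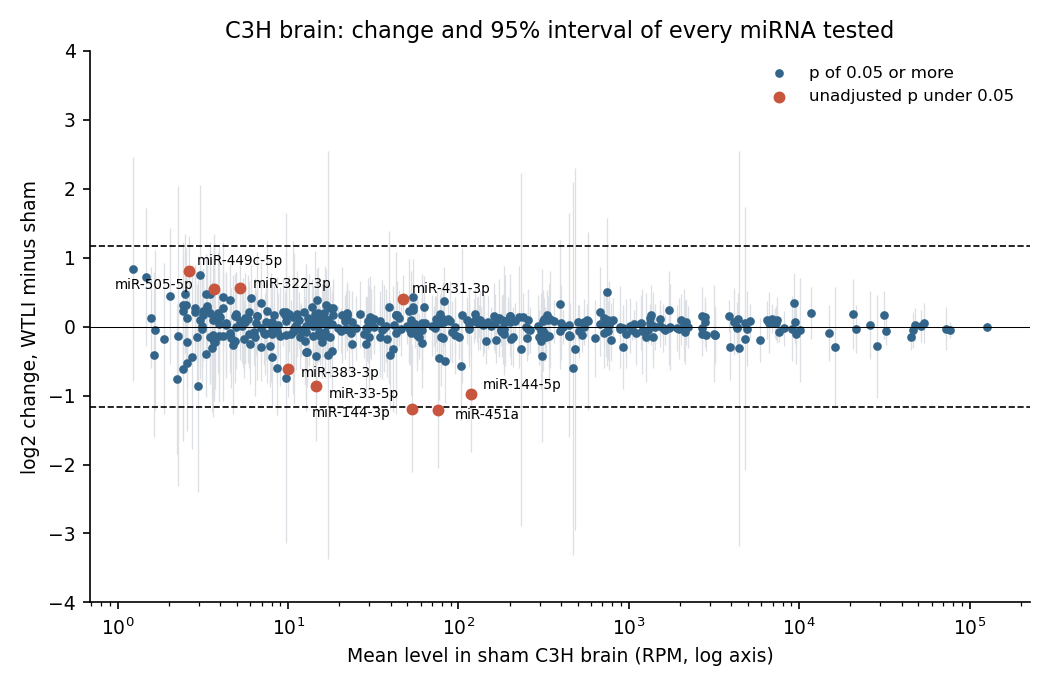
Log2 change in C3H brain, WTLI minus sham (y axis), against the mean RPM in sham brain (x axis, log scale) for the 433 miRNAs tested. Each point is a miRNA, the grey line is its 95% interval, the dashed lines are the 2.25-fold limits, and red points have an unadjusted p under 0.05. Points narrow towards 0 with abundance, and the lowest are miR-451a and miR-144-3p at -1.21 and -1.19.

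The fitted changes were small relative to the scale that quantile normalisation sets. Their median was 0.02 and their median size 0.10 on the log2 scale, and 412 of 433 lay within 0.5 of 0. Quantile normalisation gives every library the same distribution, so a shift shared by all miRNAs could not show in these values. The lowest was miR-451a at -1.21 and the highest miR-501-3p at 0.84, which had 0 to 23 reads per library, the 23 in WTLI library 2, and a change of 0.40 without it. For 382 miRNAs (88.2%) the whole 95% interval lay within the 2.25-fold limits, for 361 it lay within 2-fold, and for 209 within 1.5-fold. These counts are out of the 433, among them miR-342-5p, whose interval holds no information on C3H brain since it had no read there. For the other 51 miRNAs a change of 2.25-fold was not outside the interval, so its absence was not shown.

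Precision followed abundance. Among the 81 miRNAs with a mean over the 15 libraries of 1000 RPM or more the median standard error was 0.170 on the log2 scale, and 78 intervals lay within the 2.25-fold limits. It was 0.189 for the 100 miRNAs from 100 to 1000 RPM, where 92 intervals did so. The 144 miRNAs from 10 to 100 RPM had a median of 0.243 and 132 such intervals. For the 108 below 10 RPM it was 0.321, and 80 intervals lay within the limits but only 12 within 1.5-fold. The 9 miRNAs with an unadjusted p under 0.05 all had a mean below 100 RPM, 5 of them from 10 to 100 RPM and 4 below 10 RPM.

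None of the neuronal miRNAs passed the test. All 10 of the neuron-enriched list were tested, 0 passed, 4 had a change above 0 and 6 below, their median was -0.02 (0.02 over all 433), and all 10 intervals lay within the 2.25-fold limits. miR-9-5p, which is made in neural progenitors and neurons, was at 72876 ± 8895 RPM (SD, n = 8) in sham and 69339 ± 13497 RPM (SD, n = 7) in WTLI brain, with a change of -0.03 (95% interval -0.34 to 0.28), or 0.11 without WTLI library 2. miR-128-3p, a neuronal regulator of excitability, had a change of 0.01 (-0.22 to 0.24). miR-124-3p ranged from 2378 to 4424 RPM (median 2991) in sham and from 1142 to 4799 (median 3292) in WTLI brain, so the arms overlapped throughout. Its change of -0.10 (-0.81 to 0.60) became 0.13 without WTLI library 2, the lowest of all.

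Activity-regulated and synaptic miRNAs gave no call either. Of 7 members, all tested, 0 passed, the median change was 0.04, and 6 intervals lay within the limits. miR-132-3p, which neuronal activity induces through CREB, was at 822 to 2260 RPM (median 1360) in sham and 610 to 2327 RPM (median 1281) in WTLI brain, a change of 0.01 (-0.49 to 0.51), or -0.17 without WTLI library 2. miR-485-5p, at 0.859 to 13.5 RPM, was the member whose interval (-1.09 to 1.18) reached past the limits, and its change went from 0.04 to -0.33 without that library.

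The miRNAs of the imprinted Dlk1-Dio3 region, a large maternally expressed cluster with high levels in neurons, had changes on both sides of 0. Of 35 members 32 were tested, 0 passed, 17 had changes above 0 and 15 below, the median was 0.01, and the members ranged from -0.41 (miR-377-3p) to 0.41 (miR-410-3p). miR-377-3p was lowest in WTLI library 2 and had -0.24 without it. The let-7 family, which is abundant in differentiated cells, had 9 of 10 members tested, 0 that passed, and a median of -0.05 with all 9 intervals within the limits. let-7f-5p had one and the same quantile value in every sham library but library 5, so its interval was in part set by the scaling. let-7a-5p, at 45316 ± 3354 RPM (SD, n = 8) and 43503 ± 4918 RPM (SD, n = 7), had a change of -0.16 (-0.34 to 0.02).

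**Figure D2:**
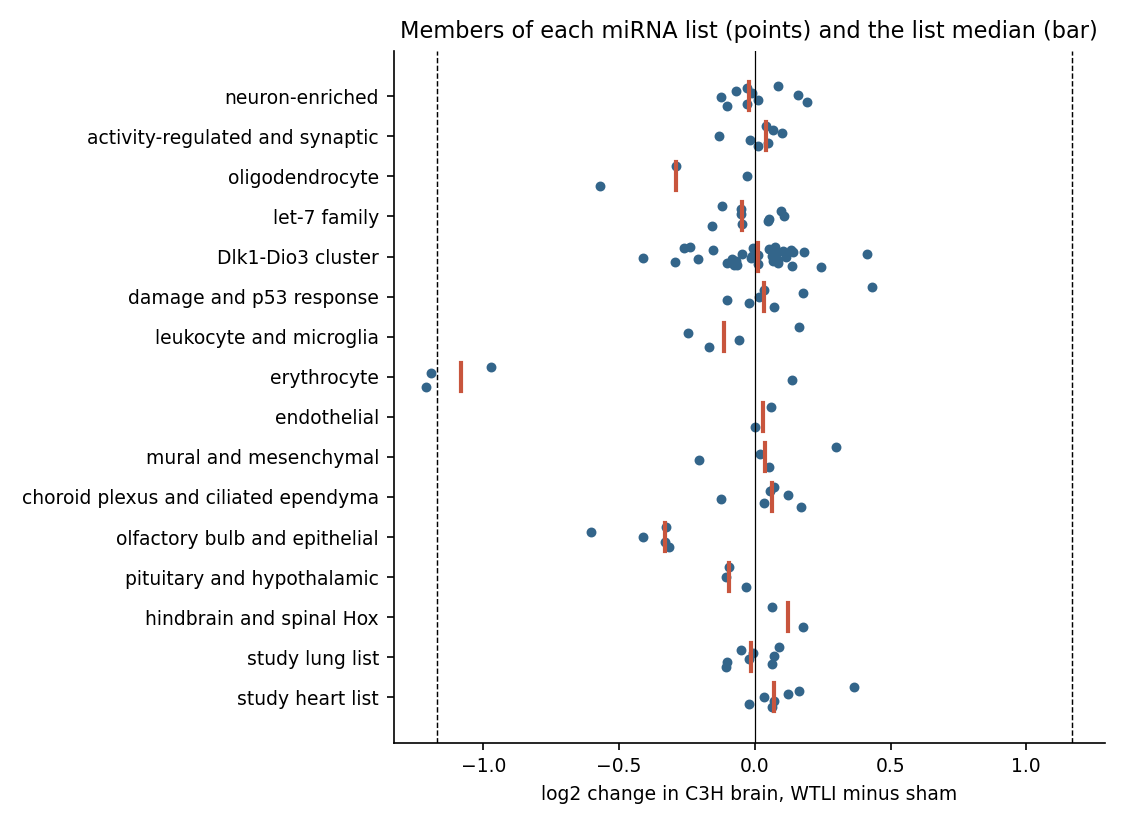
Log2 change in C3H brain (x axis) of the tested members of each of 16 miRNA lists (points, 1 row per list, the last 2 being selections of miRNAs that the study names) with the list median (red bar) and the 2.25-fold limits (dashed). The members lie near 0 in most lists, and the erythrocyte row has 3 of its 4 members near or below -1.

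miRNAs of the response to DNA damage and inflammation gave no call. Of 7 in that list, all tested, 0 passed and the median change was 0.03. miR-34a-5p, a direct p53 target, was at 2171 ± 239 RPM (SD, n = 8) in sham and 2259 ± 545 RPM (SD, n = 7) in WTLI brain, a change of 0.07 (-0.26 to 0.40), or -0.04 without WTLI library 2. miR-21a-5p, which rises in many injured tissues, was at 8120 ± 548 and 8191 ± 859 RPM (SD, n = 8 and 7), a change of -0.02 (-0.28 to 0.23). miR-155-5p, an inflammation-induced miRNA of immune cells, reached 43.4 RPM in WTLI library 2 and lay between 2.27 and 5.26 RPM in the other 14. Its change was 0.43 (-0.36 to 1.22) and -0.11 without that library.

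No marker of other cells in the homogenate passed the test. Leukocyte and microglial miRNAs (4 of 4 tested, 0 passed) had a median of -0.11 with all intervals within the limits, and their summed level was 461 to 1210 RPM in sham and 610 to 832 RPM in WTLI brain. For the endothelial pair (2 of 2) the median was 0.03, and miR-126a-3p, the most abundant miRNA of these libraries, was at 126714 ± 16067 RPM (SD, n = 8) and 129783 ± 7984 RPM (SD, n = 7). Since quantile normalisation gives the top rank the same value in each library, its fitted change was 0, and it was 0.04 with library size alone. The choroid plexus and ciliated ependyma list (6 of 6 tested, median 0.06) and the mural and mesenchymal list (4 of 5, median 0.04) each had 0 that passed and every tested interval within the limits. The former does not hold miR-449c-5p, a further miRNA of ciliated cells, whose change of 0.81 had an interval of 0.30 to 1.32 that reached past the limits. The pituitary and hypothalamic list (3 of 3, median -0.10) and the hindbrain Hox list (2 of 4, median 0.12) had 0 that passed.

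The lowest fitted changes belonged to the erythrocyte list, of which 3 of 4 members had an unadjusted p under 0.05 (2.08% over all tested) and 0 of 4 passed the adjusted test. miR-451a, which Ago2 processes in red cell precursors, was at 23.7 RPM in the lowest, 68.0 in the median and 147 in the highest of the sham libraries. In WTLI brain it was at 15.8, 17.5 and 81.4 RPM. Of the 7 WTLI libraries 4 lay below every sham library and the other 3, at 40.1, 62.0 and 81.4 RPM, lay within the sham range. The change was -1.21 (95% interval -2.05 to -0.38, p = 0.00567, adjusted p = 0.818, limma), and it was -1.02 in letter A and -1.38 in letter B.

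miR-144, the red cell miRNA made from the same primary transcript, had changes of like size. miR-144-3p was at 14.9, 44.7 and 117 RPM (lowest, median, highest) in sham and at 8.58, 15.7 and 47.9 RPM in WTLI brain, with 3 of 7 WTLI libraries below every sham library. Within the letters it was -0.71 (A) and -1.66 (B). Its change was -1.19 (-2.11 to -0.27, p = 0.0125, adjusted p = 0.997, limma). miR-144-5p was at 38.8, 115 and 183 RPM in sham and at 24.5, 46.8 and 120 RPM in WTLI brain, with 3 of 7 below all sham libraries and a change of -0.97 (-1.82 to -0.12, p = 0.0264, adjusted p = 0.997, limma), with -0.77 in A and -1.12 in B. WTLI libraries 1, 5 and 7 lay below every sham library for all 3 miRNAs, and WTLI library 2 did so for miR-451a alone.

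miR-486a-5p, the remaining erythrocyte member, had no p under 0.05. It was at 4.93, 11.1 and 17.8 RPM in sham and at 2.89, 11.3 and 40.4 RPM in WTLI brain, a change of 0.14 (-0.97 to 1.25), and the value of 40.4 RPM was again WTLI library 2, without which the change was -0.19. Whether it differed from the changes of miR-451a and miR-144 was not tested. The summed level of the 4 miRNAs was 96.5 to 441 RPM (median 229) in sham and 52.9 to 254 RPM (median 123) in WTLI brain. In a homogenate, fewer cells of a type and less RNA per cell cannot be told apart. Per the methods, mice selected for miRNA work were infused with PBS before their tissues were frozen. How much blood remained in each brain was not measured, and its part in these values was not tested.

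**Figure D3:**
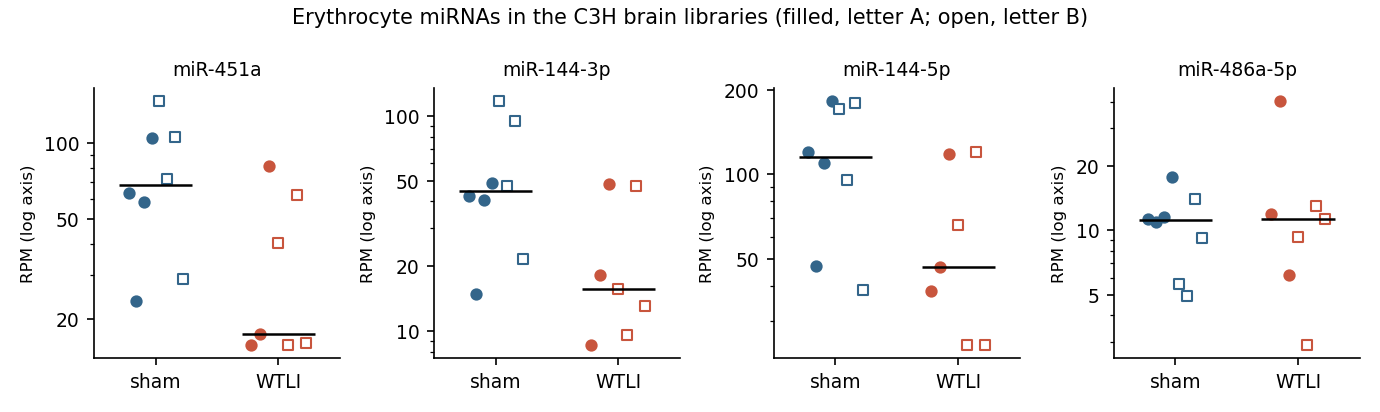
RPM (log axis) of the 4 erythrocyte miRNAs in each C3H brain library, sham in blue and WTLI in red, filled circles for letter A and open squares for letter B, with the arm median as a bar. For miR-451a 4 WTLI libraries lie below all 8 sham libraries and 3 lie among them, and for miR-486a-5p 1 WTLI library lies below and 1 above all sham libraries.

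miR-451a was also read in other tissues of these mice. In heart, inside the field, miR-451a was called lower after WTLI, at 380 ± 299 RPM (SD, n = 8) in sham and 161 ± 148 RPM (SD, n = 7) in WTLI libraries (change -1.33, adjusted p = 0.026, limma). In lung its change was 0.56 (-0.49 to 1.61), and it was -0.33 (-0.88 to 0.23) in the red cell fraction, where miR-451a was at 17564 ± 3431 and 14873 ± 10676 RPM (SD, n = 8 and 7). The difference between lung and brain in a joint fit was 1.69 (SE 0.74, adjusted p = 0.156, limma) and that between heart and brain -0.15 (SE 0.73, adjusted p = 0.954, limma), so neither was shown to differ.

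The other miRNAs with an unadjusted p under 0.05 were all scarce. miR-449c-5p, which multiciliated cells use, was at 1.27, 2.70 and 3.94 RPM (lowest, median, highest) in sham and at 3.03, 4.33 and 4.89 RPM in WTLI brain, from 4 to 19 reads per library. Of the 7 WTLI libraries 5 lay above every sham library and all 7 above the sham median. The change was 0.81 (0.30 to 1.32, p = 0.00276, adjusted p = 0.818, limma), and within the letters it was 0.24 (A) and 1.29 (B). It was one of the miRNAs called higher in C3H lung (1.51, adjusted p = 0.00161, limma). miR-449a-5p, which has the same seed and also lies in an intron of Cdc20b, had a change of 0.07 (-0.48 to 0.63) in brain, or -0.12 without WTLI library 2.

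miR-383-3p was at 7.89, 9.44 and 13.4 RPM in sham and at 3.87, 7.70 and 9.24 RPM in WTLI brain, with 4 of 7 WTLI libraries below every sham library and all 7 below the sham median (change -0.61, -1.02 to -0.20, p = 0.00483, adjusted p = 0.818, limma). miR-322-3p (0.56), miR-431-3p (0.40) and miR-505-5p (0.54) were higher and miR-33-5p, which is encoded in the Srebf2 gene of sterol synthesis, was lower (-0.86), each with an adjusted p of 0.997 (limma). Within letters A and B the changes were -0.85 and -0.41 for miR-383-3p, -1.18 and -0.65 for miR-33-5p and 0.79 and 0.05 for miR-431-3p. Without WTLI library 2 miR-33-5p had -0.70 and miR-505-5p 0.42. The changes in A and B were 0.51 and 0.64 for miR-322-3p, 0.70 and 0.44 for miR-505-5p, and -0.09 and -0.24 for let-7a-5p. miR-322-3p was above the sham median in all 7 WTLI libraries, at 5.39 to 8.57 RPM against 3.95 to 7.84 RPM in sham, so the arms still overlapped.

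The oligodendrocyte miRNAs had the lowest median after the erythrocyte and olfactory lists, -0.29 over the 3 of 4 members tested, with 0 that passed. miR-338-3p, which promotes the maturation of oligodendrocytes, was at 2600, 3705 and 5690 RPM (lowest, median, highest) in sham and at 2199, 3069 and 3636 RPM in WTLI brain. All 7 WTLI libraries lay below the sham median, 1 of them below all sham libraries, and the change was -0.29 (-0.78 to 0.20, p = 0.232, limma). miR-219a-5p, its partner in that role, was at 44.7, 96.2 and 208 RPM in sham and at 28.6, 80.5 and 93.8 RPM in WTLI brain, again with all 7 below the sham median (change -0.57, -1.36 to 0.22, p = 0.150, limma). For how many of the miRNAs tested all 7 lay on one side of the sham median is not given here. Within letters A and B the changes were -0.31 and -0.29 for miR-338-3p and -0.58 and -0.66 for miR-219a-5p. WTLI library 2, 1 of the 3 WTLI libraries of letter A, was the lowest of the 15 for both, and without it the changes were -0.25 and -0.41. miR-219a-2-3p, the opposite arm of 1 of the 2 precursors, had a change of -0.03 (-0.58 to 0.52). It was highest in WTLI library 2, at 11122 RPM, and its change was -0.23 without that library.

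The miRNAs that moved inside the field were then read in brain. Of the 34 miRNAs called in C3H lung, 27 were tested in brain, 0 passed, 1 (miR-449c-5p) had an unadjusted p under 0.05, 13 had a change above 0 and 14 below, and the median change was -0.01. Of the 21 called in C3H heart, 18 were tested in brain, 0 passed, 1 (miR-451a) had an unadjusted p under 0.05, and the median change was 0.04. Short selections of miRNAs that the study names for lung (8 of 9 tested in brain, median -0.02) and heart (7 of 8, median 0.07), which are not its full sets, had 0 that passed and every tested interval within the limits.

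miR-7b-5p, which has the seed of miR-7a-5p, showed the contrast most plainly. In lung it was at 6.33 ± 1.27 RPM (SD, n = 8) in sham and 203 ± 60.7 RPM (SD, n = 7) in WTLI libraries, a change of 4.55. Brain held far more of it, 6576 to 18502 RPM (median 8515) in sham and 6131 to 12444 RPM (median 7347) in WTLI libraries, and its change was -0.10 (-0.55 to 0.34). The difference of the changes, lung minus brain, was 4.46 (SE 0.35, adjusted p = 1.93e-13, limma joint fit). This miRNA and the others read below against an organ were picked by their organ calls, so their differences are not independent of those calls.

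miR-184-3p, at 17.2 to 86.5 RPM in brain, had a change of -0.05 (-0.77 to 0.67) there, or -0.33 without WTLI library 2, and 4.09 in lung, a difference of 4.02 (SE 0.51, adjusted p = 1.97e-07, limma). For miR-34a-5p the difference was 1.23 (SE 0.22, adjusted p = 0.000116, limma), and it fell short of the fold minimum with at least 10 counts in every library (1.04), without WTLI library 3 (1.14) and without WTLI library 5 (1.17). Of the 34 miRNAs called in lung, 16 had a called difference from brain, and of the 21 called in heart 13 did. In total, 23 of 460 miRNAs (5%) had a lung minus brain difference that was called, 17 higher and 6 lower in lung. With library size alone, which moved the median difference of all 460 miRNAs to 0.33 from -0.07, the calls were 46, 44 higher and 2 lower, and DESeq2 (median 0.12) gave 41, 34 higher and 7 lower.

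Against heart, 14 of 460 miRNAs (3.04%) were called, 12 higher and 2 lower in heart than in brain. miR-34c-5p, a p53 target and a miRNA of multiciliated cells, was at 970 to 1359 RPM (median 1205) in sham and 826 to 1522 RPM (median 1234) in WTLI brain, a change of 0.06 (-0.34 to 0.45), while heart had 75.2 ± 29.0 and 406 ± 154 RPM (SD, n = 8 and 7). The heart minus brain difference was 2.34 (SE 0.29, adjusted p = 1.99e-07, limma). miR-216a-5p differed by 2.36 (adjusted p = 6.32e-06, limma), with brain values at 35.2 to 128 RPM in sham and 69.6 to 114 RPM in WTLI libraries (change 0.37, -0.13 to 0.86), and a change of 0.76 in A and -0.06 in B. miR-150-5p, a lymphocyte miRNA, differed by -1.78 (adjusted p = 5.86e-06, limma), with 0.16 (-0.20 to 0.53) in brain, 0.51 in A and -0.17 in B. miR-21a-5p differed from brain in both organs, by 1.61 in lung (adjusted p = 0.000157, limma) and by 1.58 in heart (adjusted p = 0.00048, limma).

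**Figure D4:**
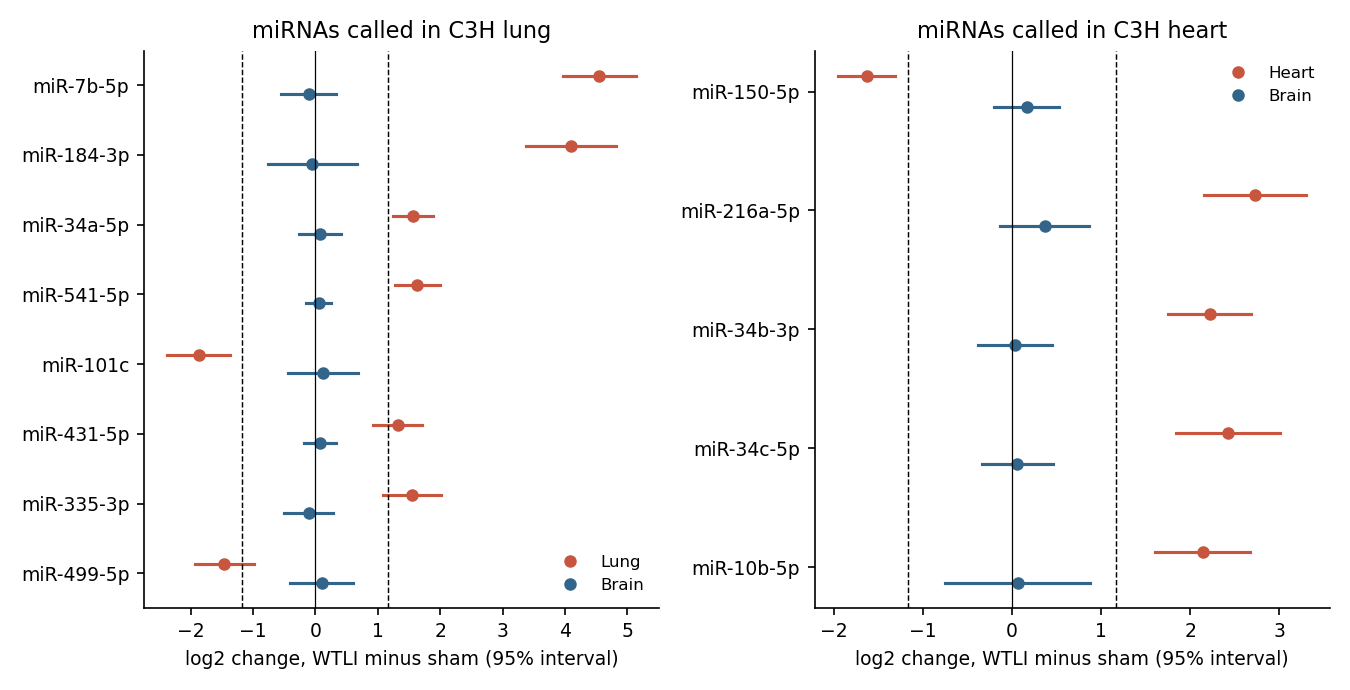
Log2 change, WTLI minus sham, with 95% intervals (x axis) for the 8 lung and 5 heart miRNAs with the smallest adjusted p there, in the irradiated organ (red) and in brain (blue). Dashed lines are the 2.25-fold limits. All 13 brain points lie between -0.11 and 0.37, with intervals that include 0.

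Spread between C3H brain libraries was ranked about the arm means, a choice that sets aside any difference between the arms. Of the 10 miRNAs with the largest spread, 7 belong to the miR-200 family, which epithelia and the olfactory bulb express, led by miR-200a-3p with an SD of 2.85 on the log2 scale about the arm means (median 0.45 over all tested). miR-200a-3p was at 150 to 348 RPM in sham libraries 3, 4, 5 and 7 and at 2126 to 23439 RPM in sham libraries 1, 2, 6 and 8. In the WTLI arm libraries 1, 2 and 6 had 71.0 to 131 RPM, and libraries 3, 4, 5 and 7 had 2841 to 9859 RPM. Low and high libraries occurred in both arms and under both letters, and the change within the letters was -1.82 (A) and 1.00 (B).

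The other members followed the same libraries. The summed level of the 5 main members was 228 to 29182 RPM in sham and 97.6 to 12930 RPM in WTLI brain, and their changes, -0.60 to -0.32, had intervals as wide as -3.37 to 2.55 (miR-200c-3p). Without WTLI library 2 the changes were 0.28 for miR-200a-3p, 0.21 for miR-429-3p, 0.17 for miR-200b-3p, -0.02 for miR-141-3p and -0.41 for miR-200c-3p, so the sign of the first 3 turned. A 2.25-fold change in either direction was not outside the interval of any of the 5. Which part of the brain each sample held was not stated.

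**Figure D5:**
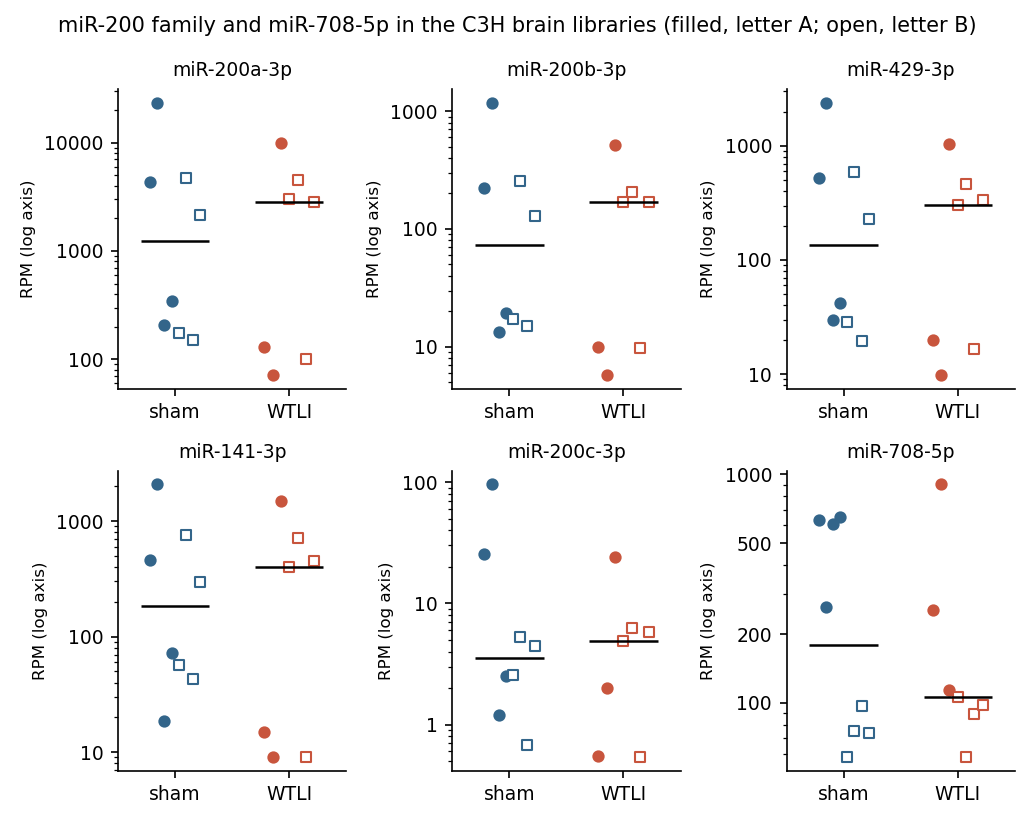
RPM (log axis) of 5 miR-200 family members and miR-708-5p in each C3H brain library, sham in blue and WTLI in red, filled circles for letter A and open squares for letter B, with the arm median as a bar. In the miR-200 panels each arm splits into low and high libraries, and in the miR-708-5p panel the 8 letter B libraries lie below the 7 letter A libraries.

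miR-708-5p had the ninth largest spread (SD 1.52) and went with the letter. It was at 113 to 904 RPM in the 7 letter A libraries and at 58.0 to 106 RPM in the 8 letter B libraries, a difference of -2.38 (SE 0.41, adjusted p = 0.00117, limma, B minus A). Between the arms its change was -0.42 (-1.68 to 0.84), or -0.89 without WTLI library 2. miR-187-5p and miR-501-3p, the remaining 2 of the 10, had at most 29 and 23 reads in a library, and miR-187-5p had a change of -0.87, or -1.41 without WTLI library 2.

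C57 brain gave no call either, at month 6, with 53 of the 433 miRNAs at an unadjusted p under 0.05. The difference of the WTLI change between C3H and C57 brain was called for 0 of 433 miRNAs (0%), the smallest adjusted p being 0.743 (limma) with 21 at an unadjusted p under 0.05. edgeR and DESeq2 also called 0. Strain and month cannot be told apart in that comparison. The strains also differed in sex, since all C3H mice were female and the C57 mice were of both sexes. In C57 brain the changes of miR-451a and miR-144-3p were -0.21 (p = 0.643) and 0.20 (p = 0.683, limma), and that of miR-449c-5p was -0.06 (p = 0.805, limma).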

How the data were processed

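The deposited values are raw counts of reads for 1915 mature miRNAs, with no scaling by the authors. QIAseq miRNA libraries had been trimmed and then aligned with mm10 as the species setting in BaseSpace, and runs with few miRNA reads had been rejected. Whether molecular identifiers were counted, and how reads shared by related miRNAs were assigned, was not stated, so RPM and their errors cover sequenced reads, and members of a family such as let-7 or miR-200 may share reads. Nothing in the labels gives the meaning of the letter A or B.

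RPM are counts divided by the library total. miRNAs were filtered with filterByExpr of edgeR 4.0.16 (minimum count 10, minimum total 15) and tested with limma 3.58.1 in R 4.3.3 (voom, quantile normalisation of log2 RPM) in 1 fit of 35 brain libraries in 4 groups (strain by arm). Of the 1915 miRNAs, 1482 did not pass the filter, and 911 had no read in C3H brain. Calls needed a 2.25-fold change together with an adjusted p under 0.05. Lung, heart and brain of C3H were also fitted together (45 libraries, 6 groups) for the differences between organs. Library measures were compared by exact permutation over all 6435 splits. Fits were tested on simulated data. The animals are shared between tissues per the titles. Deviations of the same animal correlated with a median r of 0.09 for brain and lung and -0.09 for brain and heart, and the animal as a replicate block gave 21 lung minus brain and 13 heart minus brain calls. No 2 libraries of an arm agreed within sampling noise (chi-square per degree of freedom 50.3 or more over 49 pairs). Nothing states that samples were pooled, and each library counted as 1 animal.

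The named miRNAs are the 10 most abundant, the 10 with the smallest p, the 10 with the largest spread, 8 called in lung and 5 in heart, and the members of 16 lists. The members of the part and the lists were chosen with earlier results of these data known, and the 2 lists marked as the study's are partial selections of miRNAs it names from these libraries. Alternatives were edgeR's quasi-likelihood test, DESeq2 1.42.0, voom with TMM or library size alone, looser and stricter filters, calls at any fold, the letter as a covariate, sex as a covariate (for C3H minus C57 alone), C3H alone, each letter alone, and fits without 1 library each. C3H alone with the letter as a covariate was added after the data were seen.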

Additional observations from a re-analysis of the deposited data

Results flagged for a closer look

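The change after WTLI differed between an irradiated organ and brain, in a joint limma fit with a test of the difference, for the 13 miRNAs named from the lung and heart calls, which are those with the smallest adjusted p in the organ. Over the whole lists the difference was called for 16 of the 34 lung calls and 13 of the 21 heart calls. On the log2 scale lung minus brain was 4.46 for miR-7b-5p, 4.02 for miR-184-3p, 1.23 for miR-34a-5p, 1.46 for miR-541-5p, -1.87 for miR-101c, 1.25 for miR-431-5p, 1.57 for miR-335-3p and -1.59 for miR-499-5p. Of these, miR-34a-5p, miR-431-5p and miR-499-5p lost the call under at least 1 alternative, with the values given under the processing. Heart minus brain was -1.78 for miR-150-5p, 2.36 for miR-216a-5p, 2.12 for miR-34b-3p, 2.34 for miR-34c-5p and 2.11 for miR-10b-5p. These miRNAs were picked because they were called in the organ, so neither the organ's own change nor the size of its difference from brain is an independent result.

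Of 242 sets of values examined for a single far library, 27 had one, and in 18 of these it was WTLI library 2. Each set held the values of 1 arm, either normalised log2 values of a named miRNA, total counts or numbers of detected miRNAs. The measure was Dixon's gap divided by the range of the arm, where chance gives about 1 in 20. In that library the gap ratios for high values were 0.711 for let-7c-5p, 0.729 for miR-10a-5p, 0.733 for miR-142a-3p, 0.711 for miR-155-5p, 0.748 for miR-370-3p, 0.57 for miR-382-5p, 0.673 for miR-411-5p and 0.574 for miR-449a-5p. For low values they were 0.58 for let-7g-5p, 0.674 for miR-124-3p, 0.739 for miR-136-5p, 0.624 for miR-299a-5p, 0.618 for miR-335-3p, 0.821 for miR-335-5p, 0.732 for miR-34b-5p, 0.754 for miR-376c-3p, 0.606 for miR-377-3p and 0.853 for miR-9-5p. Without this library 0 miRNAs were called and 9 had an unadjusted p under 0.05, and the changes of miR-451a, miR-144-3p and miR-144-5p were -1.11, -1.20 and -0.98. miR-370-3p went from 0.09 to -0.29 and miR-10a-5p from 0.18 to -0.14.

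WTLI library 3 was low for miR-449c-5p (0.645). Among sham libraries, library 5 was low for let-7f-5p (1, since the other libraries have one and the same quantile value) and miR-34c-3p (0.678). Library 2 was high for miR-136-3p (0.672) and low for miR-300-3p (0.598). Library 1 was low for miR-194-5p (0.529) and high for miR-7b-5p (0.705). Library 6 was low for miR-155-5p (0.584) and high for miR-21a-5p (0.534).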

How the results depend on the processing

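The count of 0 called miRNAs in C3H brain, and of 0 for C3H minus C57, was the same under every alternative run. The 10 smallest-p miRNAs kept their direction and stayed above an adjusted p of 0.05 in each alternative that could test them. miR-451a ranged from -1.43 to -1.03, its smallest adjusted p being 0.401 (without WTLI replicate 3), and miR-449c-5p from 0.69 to 1.61, with a smallest adjusted p of 0.185 (letter B alone). These are refits, letter A alone gave no refit of miR-449c-5p, and its difference of means there was 0.24. Unadjusted p-values under 0.05 numbered 55 with any count in any library, 4 with at least 10 counts in every library, 19 in letter B alone and 16 in C3H alone with the letter as a covariate, and 7 to 10 when 1 library was left out. The count filter was applied anew in each fit, so the number of miRNAs tested could differ from 433 or 460. These counts and those that follow are therefore not shares of a fixed set. Intervals within the limits numbered 836 with any count in any library, where more miRNAs were tested, and 370 to 384 without 1 library. Lung minus brain calls were 41 with DESeq2, 46 with library size alone, 10 with at least 10 counts in every library and 36 without a fold minimum, and 20 to 26 without 1 library. Heart minus brain calls were 8 with the stricter filter and 11 to 19 without 1 library. WTLI minus sham in detected miRNAs was 11.1 at 1 count, -1.82 at 10 counts (exact permutation p = 0.854) and 3.71 to 17.9 without 1 library, and in total count 45392 to 365864 without 1 library. Where a cause is not given it was not tested. With animal as a replicate block, miR-672-5p, named after its values were seen, lost its heart minus brain call (1.67, adjusted p = 0.0513, limma), and the blocked counts were within 1.5 times those given. Of the named organ differences, miR-34a-5p missed the fold minimum with the stricter filter (1.04) and without WTLI replicate 3 (1.14) or 5 (1.17), miR-431-5p missed it with that filter (1.00), and miR-499-5p missed both thresholds with library size alone (-1.11). The median standard error was 0.321 for the 108 miRNAs below 10 RPM and 0.170 for the 81 at 1000 RPM or more.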

Other observations

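Some listed miRNAs did not pass the count filter, which was set over the 35 brain libraries of both strains. In C3H brain miR-338-5p had at most 10 reads in a library, miR-665-3p and miR-214-3p at most 9, miR-196a-5p at most 9, miR-494-3p at most 5, let-7k and miR-196b-5p at most 2, miR-758-3p 1 read in all, and miR-199b-5p at most 11.

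The letter of the titles went with more miRNAs than the arm did. At an adjusted p under 0.05 with no fold minimum, 176 of 433 miRNAs differed between letters B and A (limma, arm in the model), against 0 between the arms. Both directions occurred among them, for example 0.86 for miR-101a-3p and -1.47 for miR-181b-5p (B minus A). The split of 4 higher and 20 lower in B was that at the fold minimum alone.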
